A study of Drosophila melanogaster with 2 samples.

Results

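The nuclear tRNA genes of Drosophila melanogaster were examined for binding of the chromatin protein Corto. They were taken as every gene that Ensembl release 115 classes as tRNA on X, on both arms of chromosomes 2 and 3 (2L, 2R, 3L, 3R) and on 4, which gave 290 of the 23973 annotated genes on these arms. The 22 mitochondrial tRNA genes were left out. A tRNA gene was counted as occupied when the summit of a deposited peak lay within 500 bp of its annotated start. The study was a chromatin immunoprecipitation with sequencing (ChIP-seq) of whole embryos of mixed sex, collected at 0 to 24 h of age. All embryos came from a transgenic line that makes Corto with a C-terminal tag of green fluorescent protein (GFP), and the precipitation was done with an antibody against GFP. There were 2 separate biological replicates of this 1 group, with no other genotype, treatment or age, so no condition was compared and no test was made. Whole embryos mix all tissues and stages of the collection, and binding in a few cells cannot be told apart from weaker binding in many.

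tRNA genes are short genes transcribed by RNA polymerase III from a promoter that lies inside the transcribed sequence. The internal A and B boxes are bound by TFIIIC, which places TFIIIB, the factor that recruits the polymerase, just upstream of the start. The genes are present in many near-identical copies, scattered singly or in clusters, and each carries the anticodon of 1 amino acid class, called its isotype. Corto is a chromodomain protein, and mutations in its gene modify the phenotypes of both Polycomb group and Trithorax group mutants.

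The sequences below show the tRNA genes with a reproducible Corto summit next to relatives of the same isotype without one. They are read 5′ to 3′ on the strand of the gene from the NCBI RefSeq genome (dm6). The first set holds genes with a summit that have no intron, and capitals mark a match to a loose form of the B box, GTTCNANNC.
Gln-TTG-2-1: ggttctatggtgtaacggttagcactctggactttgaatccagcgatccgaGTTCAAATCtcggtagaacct
Gln-TTG-1-2: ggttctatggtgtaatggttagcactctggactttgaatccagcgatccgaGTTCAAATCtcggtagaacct
Lys-TTT-1-1: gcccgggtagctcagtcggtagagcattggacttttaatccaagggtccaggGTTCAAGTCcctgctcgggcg
Cys-GCA-1-3: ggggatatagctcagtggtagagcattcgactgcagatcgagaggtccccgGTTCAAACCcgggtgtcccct
Genes with no summit within 500 bp in the optimal or the pooled list follow, with the same capitals.
Gln-TTG-1-1: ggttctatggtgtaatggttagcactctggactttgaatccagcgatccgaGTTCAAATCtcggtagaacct
Lys-TTT-2-1: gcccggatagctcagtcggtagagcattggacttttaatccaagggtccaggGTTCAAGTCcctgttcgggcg
Cys-GCA-2-1: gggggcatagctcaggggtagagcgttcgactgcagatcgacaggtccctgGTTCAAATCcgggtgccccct
The tyrosine genes carry an intron, which the capitals mark. The first of these have an optimal summit and the last has none.
Tyr-GTA-1-8: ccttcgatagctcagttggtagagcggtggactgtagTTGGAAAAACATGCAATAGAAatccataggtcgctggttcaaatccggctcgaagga
Tyr-GTA-1-4: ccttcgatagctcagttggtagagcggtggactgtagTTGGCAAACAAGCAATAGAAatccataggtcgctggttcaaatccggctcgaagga
Tyr-GTA-1-5: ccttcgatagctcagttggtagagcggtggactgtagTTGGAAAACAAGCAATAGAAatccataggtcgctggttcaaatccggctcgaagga
Tyr-GTA-1-9: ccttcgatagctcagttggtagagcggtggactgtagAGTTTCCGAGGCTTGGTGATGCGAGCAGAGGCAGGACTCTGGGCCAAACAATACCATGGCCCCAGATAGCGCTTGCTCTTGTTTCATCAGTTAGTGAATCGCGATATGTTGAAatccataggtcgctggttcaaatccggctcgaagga

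With positions counted from 1 at the 5′ end of the gene, Gln-TTG-2-1 and Gln-TTG-1-2 differed at 1 position (C16T), and Gln-TTG-1-1, which had no summit, was identical to Gln-TTG-1-2 over all 72 bases. Lys-TTT-1-1 and Lys-TTT-2-1 differed at 2 positions (G7A and C66T). Within 500 bp of Lys-TTT-1-1, 97.12% of 31-base words occurred once on the arms. The median for the cluster of Lys-TTT-2-1 was 41.76%, and the part of this in the missing summit was not tested. Cys-GCA-1-3 and Cys-GCA-2-1 differed at 8 positions. Tyr-GTA-1-4 and Tyr-GTA-1-5 differed at 1 position, inside the intron (C42A). The loose B box was found in 271 of the 290 tRNA genes (93.4%) and in all 16 with an optimal summit. The stricter B box core GTTCGANNC was found in 160 (55.2%) and the A box core TGGCNNAGT in 34 (11.7%). Each form was searched on the strand of the gene only. The loose form was chosen after the sequences had been seen and includes every match of the stricter one.

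Of the 290 tRNA genes, 16 (5.52%, 95% Wilson interval 3.42 to 8.77) had a summit of the optimal list within 500 bp. This list holds the 2644 peaks that the authors kept by their irreproducible discovery rate, which scores whether both replicates rank a peak alike. At the same distance, 8.20% of the 13945 protein-coding gene starts had an optimal summit, and 1.89% of all bases of the arms lay that close to one. The interval for tRNA genes includes the protein-coding share and lies above the share of bases. For the 258 tRNA genes with no protein-coding transcription start site within 500 bp of their start, the share was 3.49%. Its interval, 1.85 to 6.5, includes the share of bases. The 16 genes were served by 11 summits, which were 0.416% of the list, since 4 of the summits lay near 2 or more tRNA genes. Genes at a common summit are not independent observations. The median distance from a tRNA gene start to the nearest optimal summit was 17670 bp, and it was 17755 bp for protein-coding gene starts.

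In the pooled list, which the authors made from both replicates together and which includes background by its own name, 121 tRNA genes (41.7%, interval 36.2 to 47.5) had a summit within 500 bp. The share was 36.2% for protein-coding gene starts and 18.7% for the bases of the arms. The pooled list holds 30000 entries, and its strongest 2644 are the optimal list. Of the 108 pooled summits at tRNA genes, 97 were outside the optimal list. The nearest pooled summit was a median of 706 bp from a tRNA gene start and 1400 bp from a protein-coding gene start. The lists of the single replicates placed a summit at 134 tRNA genes (46.2%) in replicate 1 and at 122 (42.1%) in replicate 2. Both replicates did so at 79 genes (27.2%) and neither at 113 (39%), while 55 genes had a summit in replicate 1 alone and 43 in replicate 2 alone. All 11 optimal summits at tRNA genes had a summit of each replicate within 200 bp, against 56 of the 108 pooled ones (51.9%). For the whole optimal list this share was 96.5%, and that list was selected for agreement of the replicates. The 108 include the same 11, and no such share is given here for all 30000 pooled entries.

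The peak signals given here are the authors' values. Their scale is not stated, and they are used only to rank and describe peaks within a list. The strongest summit at a tRNA gene had a pooled signal of 385.1 and ranked 51 in the optimal list. It lay on 3R at 8669354 in a peak from 8669240 to 8669436, 180 bp upstream of Tyr-GTA-1-8 (3R 8669081 to 8669174, minus strand), a tyrosine tRNA gene. Its signal was 191 in replicate 1 and 183.5 in replicate 2, with ranks of 55 and 68. The host genes at this position were CG8036 and p (pink), and a CG8036 transcription start site (TSS) lay 264 bp from the summit.

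Both further summits with a pooled signal near 200 also lay next to a protein-coding TSS. The first, on 2R at 12335202, was 136 bp upstream of the histidine gene His-GTG-1-3 (2R 12334995 to 12335066, minus strand) and 114 bp from the TSS of CG8490. Its signal was 202.8 pooled, 109.4 in replicate 1 and 99.24 in replicate 2. The second, on 2R at 18639422, lay 135 bp upstream of the tryptophan gene Trp-CCA-2-2 (2R 18639557 to 18639628, plus strand) and 374 bp from the start of the glycine gene Gly-GCC-1-9 (2R 18639726 to 18639796, minus strand). It was 152 bp from the TSS of CG30122, and its signal was 199.2 pooled, 88.38 in replicate 1 and 106.3 in replicate 2. Both replicates placed these 2 summits in the upper part of their lists, with ranks from 314 to 541.

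The strongest summit at a tRNA gene with no protein-coding TSS within 500 bp lay on X at 3427725, 202 bp upstream of the glutamine gene Gln-TTG-2-1 (X 3427452 to 3427523, minus strand), inside CG12535. Its signal was 146 pooled, 74.46 in replicate 1 and 77.77 in replicate 2, and the nearest protein-coding TSS, that of CG14269, was 8082 bp away. The next lay on 2L at 8291017, 290 bp downstream of the start of the lysine gene Lys-TTT-1-1 (2L 8290727 to 8290799, plus strand). This gene sits inside Btk, which encodes a Tec family tyrosine kinase and is transcribed from the opposite strand; the signal was 139.4 pooled, 75.15 in replicate 1 and 66.24 in replicate 2. For both genes the replicate signals differed little, and the gene was the only tRNA gene within 500 bp. The summit at the alanine gene Ala-TGC-2-1 (2R 17392215 to 17392286, plus strand) was at 17392511, 296 bp downstream of the start, with signals of 121.1 pooled, 59.79 in replicate 1 and 65.34 in replicate 2.

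At the weaker summits the replicates were less alike. The glutamine genes Gln-TTG-1-2 (3R 26947263 to 26947334) and Gln-TTG-1-3 (3R 26947512 to 26947583), both on the minus strand, lay on either side of a summit at 26947457, which was 123 and 126 bp from their starts. Its signal was 120.3 pooled, 36.83 in replicate 1 and 67.14 in replicate 2, and the TSS of Spag1 was 373 bp away. At the leucine gene Leu-AAG-1-1 (2R 14984327 to 14984408, minus strand), inside pcs, the summit was 46 bp upstream, the shortest distance among the 11, with signals of 92.24 pooled, 38.58 in replicate 1 and 50.56 in replicate 2. The other leucine gene, Leu-TAA-2-1 (3R 24112964 to 24113047, plus strand), had a summit 193 bp upstream and 382 bp from the TSS of CG13605, with signals of 90.92 pooled, 30.08 in replicate 1 and 54.1 in replicate 2. In all 3 cases replicate 2 had the higher signal. The lists of the replicates are separate calls, so this does not compare amounts of binding.

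The remaining optimal summits lay between tRNA genes of a cluster. The summit on 3L at 3096240 fell inside Cht7, a chitinase gene, between the cysteine genes Cys-GCA-1-2 (3L 3095991 to 3096062) and Cys-GCA-1-3 (3L 3096369 to 3096440), with the lysine gene Lys-CTT-1-12 (3L 3096604 to 3096676) 364 bp away. Its signal was 87.71 pooled, 50.99 in replicate 1 and 33.04 in replicate 2, the only one of these weaker summits that was higher in replicate 1. The summit on 3R at 8642532 lay between the tyrosine genes Tyr-GTA-1-4 (3R 8642333 to 8642425) and Tyr-GTA-1-5 (3R 8642701 to 8642793), at 107 and 261 bp from their starts. Its signal was 87.51 pooled, 29.79 in replicate 1 and 54.35 in replicate 2, and the nearest protein-coding TSS was 2926 bp away. Both summits were near the lower end of the optimal list, whose signals ran from 81.23 to 1209. Just inside the 500 bp limit were Lys-CTT-1-12 at 364 bp and Gly-GCC-1-9 at 374 bp. Just outside it were Cys-GCA-1-1 at 503 bp from the same summit on 3L and the valine gene Val-CAC-2-5 on 3R at 532 bp from a summit with a signal of 91.82.

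**Figure D1:**
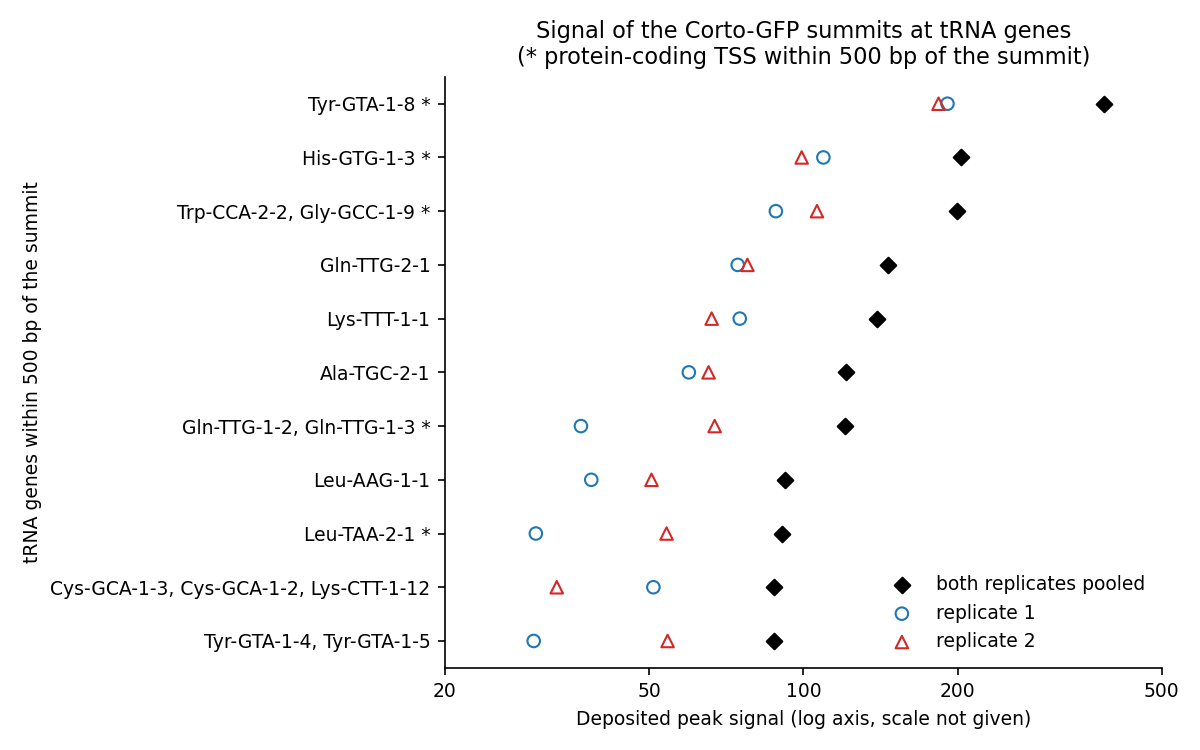
Deposited signal of the 11 optimal summits at tRNA genes on a log axis, as called on both replicates pooled (diamonds) and in replicate 1 (circles) and replicate 2 (triangles); an asterisk marks a protein-coding TSS within 500 bp of the summit. The pooled signal runs from 385.1 at Tyr-GTA-1-8 to 87.51 at Tyr-GTA-1-4 and Tyr-GTA-1-5, and the replicate symbols lie farther apart in the lower rows than in most upper ones.

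The median signal of the 11 summits was 121.1, against 112.8 for all optimal summits. It was 199.2 for the 5 summits with a protein-coding TSS within 500 bp and 106.7 for the 6 without. Both replicates ranked 6 of the 11 among their own strongest 2644 entries (54.5%, interval 28 to 78.7), and the same held for 53.9% of the whole list. Replicate 1 ranked 7 of the 11 that high and replicate 2 ranked 10. The summits that replicate 1 ranked lower were those at Gln-TTG-1-2, Leu-AAG-1-1, Leu-TAA-2-1 and Tyr-GTA-1-4, with ranks from 3451 to 5759, and the one that replicate 2 ranked lower was at Cys-GCA-1-3, with a rank of 5210.

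A protein-coding TSS lay within 500 bp of 5 of the 11 optimal summits at tRNA genes (45.5%, interval 21.3 to 72). The share was close to that in the whole optimal list, 1156 of 2644 (43.7%). In the pooled list it was 22 of 108 (20.4%) at tRNA genes and 7063 of 30000 (23.5%) overall. Removing the summits with a protein-coding TSS left 9 tRNA genes with an optimal summit (3.1%, interval 1.64 to 5.79), and 7 (2.41%) had such a TSS beside their summit. Looking from the gene, 32 tRNA genes had a protein-coding TSS within 500 bp of their own start, and 7 of these had an optimal summit (21.9%, interval 11 to 38.8). Of the other 258, 9 did (3.49%, interval 1.85 to 6.5). The intervals do not overlap; no test was made, and the genes near one summit count more than once. For pooled summits the shares were 21 of 32 (65.6%, interval 48.3 to 79.6) and 100 of 258 (38.8%, interval 33 to 44.8). At these sites a summit near both starts cannot be assigned to either gene.

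**Figure D2:**
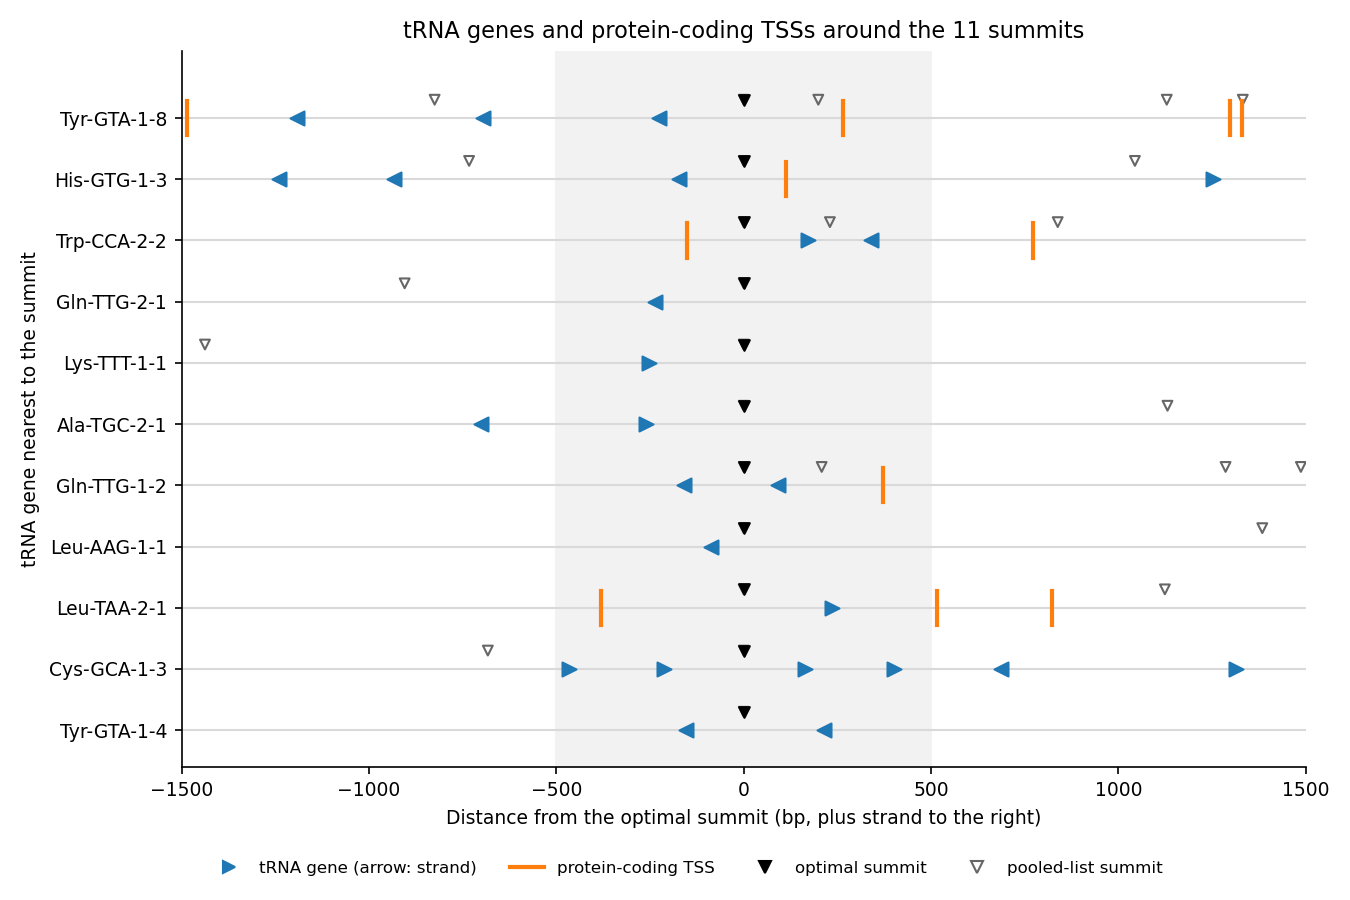
Maps of the 11 optimal summits, each centred on its summit at 0 bp, with tRNA genes as arrows in the direction of their strand, protein-coding TSSs as bars and summits as triangles (filled for optimal, open for other pooled-list summits). Summits lie beside the tRNA genes rather than on them, and a protein-coding TSS stands within the shaded 500 bp in 5 rows.

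The summits lay beside the tRNA genes. No optimal summit fell inside a tRNA gene body, and 0 of 11 allows a share of up to 27.3% when a limit of 3 counts is used. Distances to the nearest base of a tRNA gene ran from 46 to 225 bp. Of the 11, 9 were upstream of the nearest tRNA start (81.8%, interval 52.3 to 94.9), with a median offset of −129 bp from the start, where negative values are upstream. The 9 include all 5 summits with a protein-coding TSS within 500 bp. They also include the summit at Gln-TTG-1-2, which lay 126 bp downstream of the start of Gln-TTG-1-3. Optimal summits lay mostly upstream of protein-coding gene starts too. There, 391 pairs of a summit and a gene fell 200 to 100 bp upstream and 50 fell 100 to 200 bp downstream. In the pooled list 62 of 108 summits were upstream (57.4%, interval 48 to 66.3) and 11 fell inside a tRNA gene (10.2%). tRNA genes are 73 bp long at the median, so that little of the window is gene body.

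In bins of 100 bp, the bin from 200 to 100 bp upstream held the most pooled summits, with 30 pairs of a summit and a tRNA gene, or 10.3 for every 100 genes. The bins from 100 bp upstream to the start and from the start to 100 bp downstream held 4.48 and 4.14, and the bin from 100 to 200 bp downstream held 7.24. For protein-coding gene starts the 4 values were 9.46, 7.41, 4.2 and 3.03. Farther out, from 400 to 1000 bp on either side, the bins of tRNA genes held 1.03 to 5.86, so the values next to the start were within the range of these flanks, and the downstream value of 7.24 (21 pairs) stood not far above their highest (17 pairs). The shapes for tRNA and protein-coding genes were not tested against each other. Optimal summits gave 7 pairs in the bin from 200 to 100 bp upstream, 1 from 100 bp upstream to the start, 0 in the first 100 bp and 4 from 200 to 300 bp downstream. Within the tRNA genes themselves the median share of 31-base words that occur once on the arms was 0%, against 92.07% within 500 bp of the start. Whether reads from repeated words were kept is not given, and the part of this in the values across the gene was not tested.

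**Figure D3:**
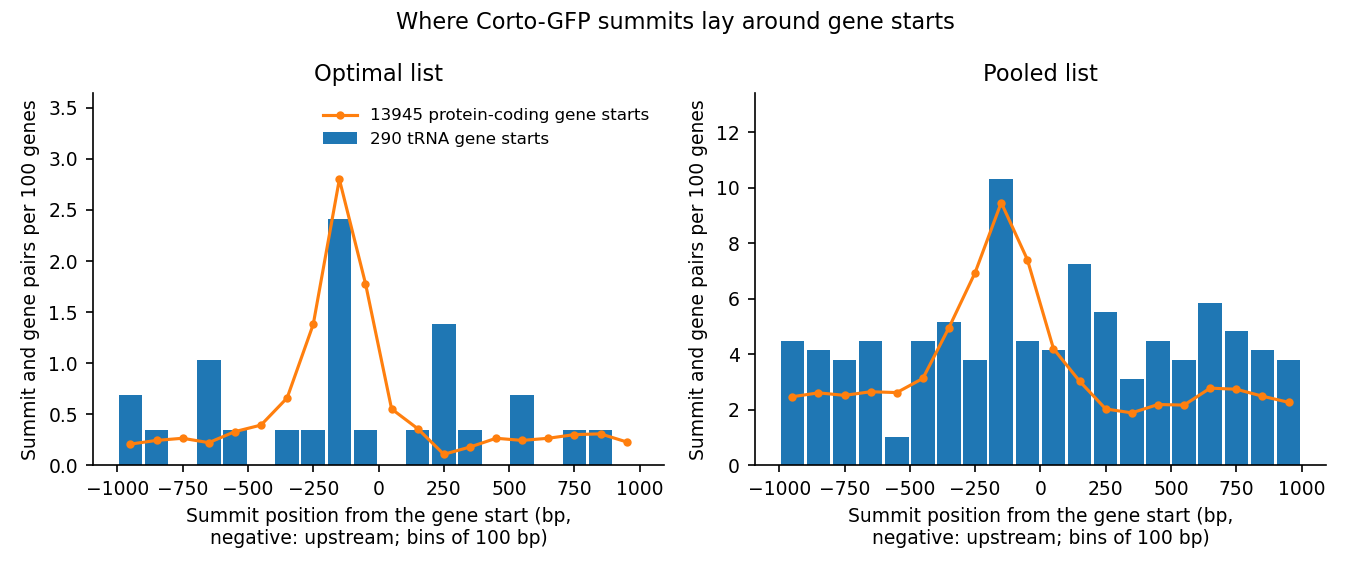
Pairs of a summit and a gene start for every 100 genes, in bins of 100 bp from 1000 bp upstream (negative) to 1000 bp downstream, for the optimal list (left) and the pooled list (right). Bars are the 290 tRNA genes and the line is the 13945 protein-coding genes; in the pooled list the bars reach 10.3 upstream and 7.24 downstream of the gene.

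The tRNA genes formed 144 separate loci when genes with starts up to 5000 bp apart were chained. Of these, 68 were clusters of 2 or more genes holding 214 genes (73.8%), and 76 were single genes. An optimal summit was found at 12 of the 214 clustered genes (5.61%, interval 3.24 to 9.54) and at 4 of the 76 single genes (5.26%, interval 2.07 to 12.8). Pooled summits were found at 95 clustered genes (44.4%, interval 37.9 to 51.1) and 26 single genes (34.2%, interval 24.5 to 45.4). The intervals overlapped in both lists, but they treat genes as independent although genes of a cluster can share a summit. Counted by cluster, 7 of 68 had a gene with an optimal summit (10.3%, interval 5.08 to 19.8) and 43 had one with a pooled summit (63.2%).

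Of the 10 clusters with 5 or more genes, 1 had an optimal summit, close to the 10.3% of all clusters. A pooled summit was at 9 of them, against 63.2% of all clusters. A cluster with more genes has more starts at which a summit can be counted. Among their 72 genes, 3 had an optimal summit (4.17%, interval 1.43 to 11.5), and 36 had a pooled one (50%, interval 38.7 to 61.3). Clusters of 2 to 4 genes gave 9 of 142 (6.34%, interval 3.37 to 11.6) and 59 of 142 (41.5%, interval 33.8 to 49.8). The intervals overlapped in either list. They treat genes as independent, although the 3 genes with an optimal summit in the larger clusters share 1 summit. Their overlap thus does not show that the shares are alike.

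The largest cluster by number of genes lay on 2R from 6161535 to 6171759 and held 11 arginine, asparagine, lysine and isoleucine genes. Of these, 7 had a pooled summit, the strongest with a signal of 41.67, and the nearest optimal summit was 13739 bp away. A cluster of equal number on 3R, from 17617761 to 17631750, held valine, proline, alanine and threonine genes, of which 4 had a pooled summit with signals up to 36.6. The nearest optimal summit was 47080 bp away. Both had pooled signals not far from the pooled list's median of 30.57.

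Each of the next clusters had 7 genes. An isoleucine and leucine cluster (2R 13430282 to 13432794) had 3 genes with a pooled summit, the strongest at 28.66. A cluster of initiator methionine and glutamate genes (2R 19725620 to 19728958) had 1 gene with a pooled summit, at a signal of 55.18. An arginine and serine cluster (X 14014814 to 14017284) had 3, at a signal of up to 19.81, close to the lowest of the list, 19.63. The optimal list had none of its summits within 500 bp of a start in these clusters, the nearest being 23919 to 77204 bp from them. The median share of unique 31-base words around the genes of the X cluster was 63.54%, below the 89.7% and 90.83% of the others. A cluster of 6 identical glutamate genes on 3L, 1397695 to 1401852, had no summit in either list and a share of 49.69%; the part of repeated sequence in this was not tested.

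**Figure D4:**
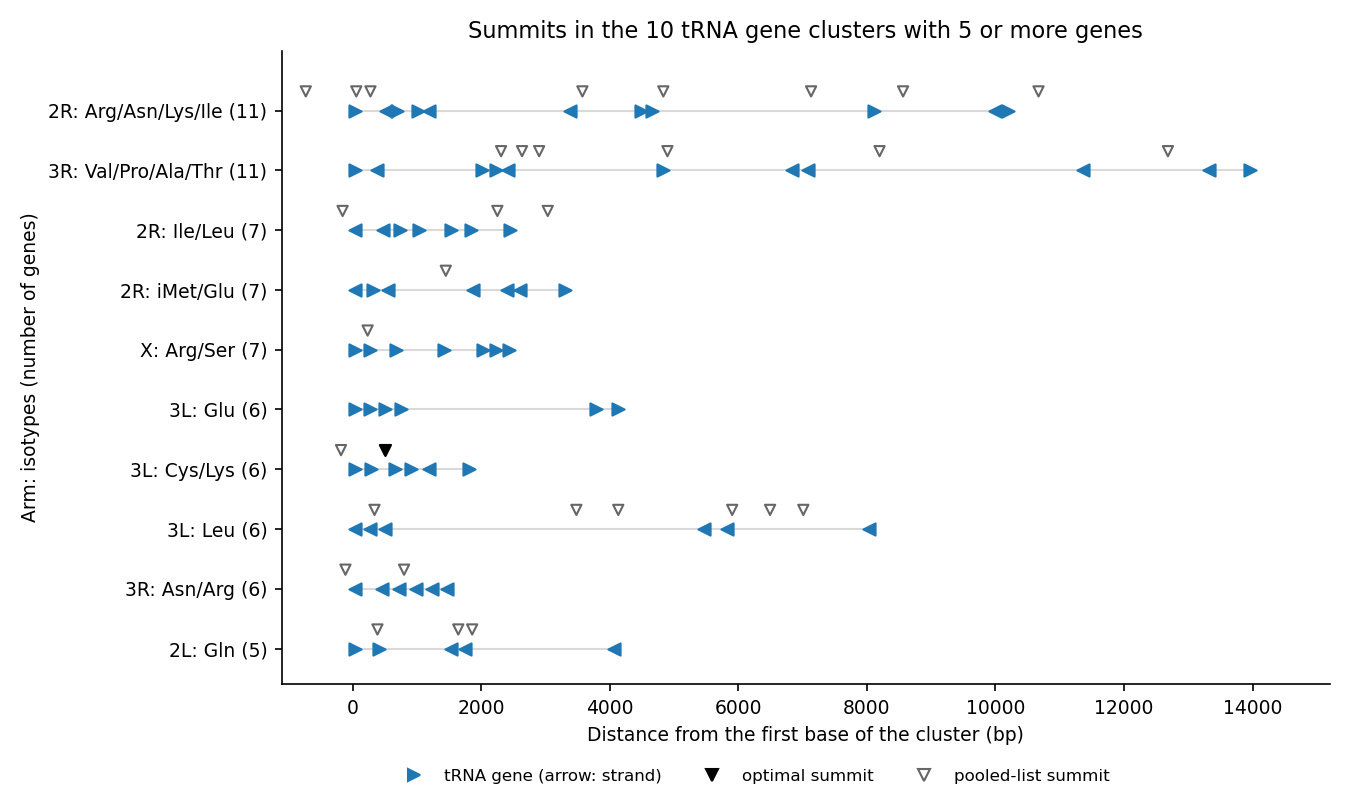
The 10 tRNA gene clusters with 5 or more genes, drawn from their first base in bp, with genes as arrows and summits of the optimal (filled) and pooled (open) lists above them. The only optimal summit lies in the cysteine and lysine cluster on 3L, and the glutamate cluster on 3L has no summit.

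Of the 7 clusters with an optimal summit, 6 had 2 to 4 genes (85.7%) and 5 were of 1 isotype (71.4%), close to the 85.3% and 72.1% of all 68 clusters. The cysteine and lysine cluster inside Cht7 (3L 3095737 to 3097590) had 6 genes, 3 of them with an optimal summit. The cluster of 4 identical histidine genes (2R 12333926 to 12336489) had 1 with an optimal and all 4 with a pooled summit. The tyrosine genes gave 2 of the 7 clusters, both on 3R. In that from 8668116 to 8669174, 1 of 3 genes had an optimal summit and all 3 a pooled one, and in that from 8642333 to 8642793 both genes had the optimal summit that lies between them. The other 3 were pairs, with the alanine gene Ala-TGC-2-1 (2R 17391774 to 17392286), the tryptophan and glycine genes (2R 18639557 to 18639796) and the glutamine genes Gln-TTG-1-2 and Gln-TTG-1-3 (3R 26947263 to 26947583).

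By isotype, 9 of 22 classes had a gene with an optimal summit, and 21 had one with a pooled summit, where initiator methionine and selenocysteine count as classes of their own. Glutamine had 3 of 12 genes with an optimal summit and tyrosine 3 of 10, cysteine had 2 of 7, lysine 2 of 19 and leucine 2 of 22. Histidine (of 5 genes), tryptophan (of 8), alanine (of 17) and glycine (of 20) had 1 each. The 13 isotypes without one held 170 genes, among them the 26 arginine genes, the 20 serine genes and the 19 glutamate genes. Over all 290 tRNA genes the share was 5.52% in the optimal and 41.7% in the pooled list. In the pooled list glutamine had 9 of 12, tyrosine 8 of 10, histidine 4 of 5 and arginine 14 of 26. Glutamate had 2 of 19, tryptophan 1 of 8 and initiator methionine 0 of 6, where 0 of 6 allows a share of up to 50%. Of the glutamate genes, 6 form the 3L cluster whose median share of unique 31-base words was 49.69%. The part of this in the low count was not tested. The classes named here were picked from 22. Classes of this size share summits within clusters and were not tested against each other.

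**Figure D5:**
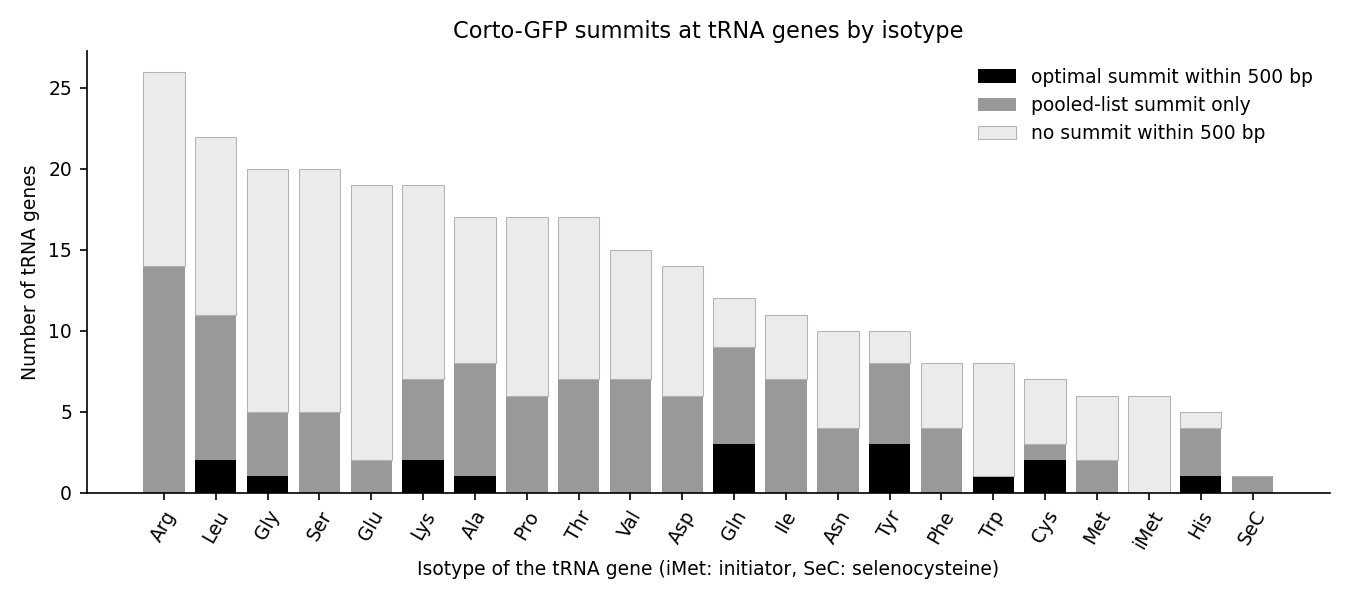
Number of tRNA genes of each isotype with an optimal summit within 500 bp (black), with only a weaker pooled-list summit (grey) and with no summit (light). Glutamine and tyrosine each have 3 genes in black, arginine has 26 genes and none in black, and initiator methionine has no summit. Over all isotypes 16 of the 290 genes are in black.

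Genes with the same sequence differed in whether a summit was detected within 500 bp. In all, 238 of the 290 genes (82.1%) had at least 1 identical copy, and there were 95 distinct sequences. Of the 16 genes with an optimal summit, 9 had an identical copy. Only 1 of the 13 identical Lys-CTT genes, spread over 6 loci, had an optimal summit, and 6 had a pooled one. For Gly-GCC the numbers were 1 and 3 of 13 identical genes, for Trp-CCA 1 and 1 of 6, for Leu-AAG 1 and 1 of 4, and for His-GTG 1 and 4 of 5. Of the 3 identical Gln-TTG genes, both on 3R had the optimal summit between them. The copy on 3L (11801471 to 11801542) was 18423 bp from the nearest optimal and 4585 bp from the nearest pooled summit. Copies of 1 sequence thus included genes with and without a detected summit. Over all 290 tRNA genes the shares were 5.52% in the optimal and 41.7% in the pooled list. At such shares a family of several copies can hold genes of both kinds whatever its sequence.

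All 10 Tyr-GTA genes carry an intron, and 9 of them share one exon sequence. Their introns run from 20 to 113 bp. Within 500 bp, 3 had an optimal summit, all on 3R, and 8 had a pooled summit. Tyr-GTA-1-9 (2L 7711476 to 7711661), with the longest intron, was 2251 bp from the nearest pooled summit. Its start lay 11 bp from a TSS of the protein-coding gene Ntl. Tyr-GTA-1-3, with an intron of 21 bp, also had no pooled summit within 500 bp, the nearest being at 681 bp. Across all 16 tRNA genes with an annotated intron, 3 had an optimal summit (18.8%, interval 6.59 to 43), against 13 of 274 without one (4.74%, interval 2.79 to 7.95). The intervals overlap, and all 3 were tyrosine genes.

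tRNA genes inside and outside protein-coding genes had similar shares. Of the 134 tRNA genes so placed, 7 had an optimal summit (5.22%) and 54 a pooled one (40.3%). Of the 156 others, 9 (5.77%) and 67 (42.9%) did. An overlap with an exon of a protein-coding gene was found for 7 of the 290 tRNA genes (2.41%) and for none of the 16 with an optimal summit, a count too small to set against that share.

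The 60 bp before and after the summit base show the flanking sequence in which the strongest summit and the 2 strongest without a protein-coding TSS lay. They are given on the plus strand of dm6, and the capital marks the summit base.
Tyr-GTA-1-8 (3R:8669294-8669414): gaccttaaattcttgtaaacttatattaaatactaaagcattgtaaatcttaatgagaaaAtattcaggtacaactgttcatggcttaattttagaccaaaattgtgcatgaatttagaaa
Gln-TTG-2-1 (X:3427665-3427785): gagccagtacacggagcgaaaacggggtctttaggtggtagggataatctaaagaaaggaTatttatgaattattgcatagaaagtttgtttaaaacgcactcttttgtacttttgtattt
Lys-TTT-1-1 (2L:8290957-8291077): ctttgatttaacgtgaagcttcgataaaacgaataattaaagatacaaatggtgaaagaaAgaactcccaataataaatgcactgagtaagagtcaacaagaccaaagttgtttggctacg
Their GC content was 25.6%, 35.5% and 33.9%. The median over the 11 summits at tRNA genes was 33.9%, and it was the same, 33.9%, over all optimal summits.

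In the 100 bp before and after each summit, searched on both strands, the B box core GTTCGANNC was found at 1 of the 11 summits (His-GTG-1-3). It was at 51 of all 2644 optimal summits (1.93%) and at 157 of the 290 tRNA gene starts (54.1%). The nearest tRNA gene body was a median of 136 bp from the 11 summits, so most of these windows held no part of a tRNA gene. Their counts thus cannot be set against those at gene starts. At His-GTG-1-3 the gene was also 136 bp away, so the match lay outside it. The A box core TGGCNNAGT was at none of the 11, against 2.69% of all optimal summits. GAGAG, the short motif bound by GAGA factor, was at 1 of the 11 (Leu-TAA-2-1) and at 30.4% of all optimal summits. It was at 19 of the 108 pooled summits at tRNA genes (17.6%) and at 33.4% of tRNA gene starts. TATCGATA, bound by DREF and BEAF-32, and GGTCACAC, bound by M1BP, were at none of the 11, and at 2.42% and 1.06% of all optimal summits. The loose forms, chosen after the data had been seen, were at 2 of the 11 for GTTCNANNC and at 4 for GCNNAGNNG, against 6.73% and 21.3% of all optimal summits. These counts describe letters in a window and not binding of the factors.

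Genes for the proteins that transcribe, charge and process tRNA were counted by any annotated TSS, for which 9.9% of all protein-coding genes had an optimal summit within 500 bp and 39.1% a pooled one. Of 20 genes matched for the RNA polymerase III machinery, 4 had an optimal summit (20%) and 9 a pooled one (45%). They were Brf and Bdp1, which encode subunits of TFIIIB, Polr3E, a subunit of RNA polymerase III, and Polr1D, a subunit shared by RNA polymerases I and III. The summit at Brf had a signal of 192.8 pooled, 106.1 in replicate 1 and 47.98 in replicate 2. At Bdp1 the signals were 185.1, 64.96 and 121.1 in the same order. The replicates thus differed in opposite directions at these 2 genes. At Polr3E they were 148.9, 75.58 and 73.05, and at Polr1D 93.56, 44.81 and 49.57.

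Of the 20 cytosolic aminoacyl-tRNA synthetase genes, whose enzymes load amino acids onto tRNA, 5 had an optimal summit (25%) and 7 a pooled one (35%). The highest signal was at GluProRS, which encodes the joint glutamate and proline enzyme, with 168.5 pooled, 91.47 in replicate 1 and 76.53 in replicate 2. AlaRS followed with 113.1, 42.69 and 75.7, and IleRS with 102.9, 50.44 and 60.71. GlyRS had 88.89, 36.73 and 42.13, and AspRS had 86.09, 45.19 and 48.23. Of 16 genes matched for tRNA processing and modification, 1 had an optimal summit, Archease, whose human counterpart assists the tRNA ligase, with 107.7, 60.89 and 45.41, and 6 had a pooled one (37.5%). With lists of this size each gene is worth 5% or more of its list, and the shares were not tested. Another 110 annotated entries belong to families transcribed by RNA polymerase III, of which 100 are 5S rRNA entries that include 4 annotated pseudogenes. Of the 110, 0 had an optimal and 5 had a pooled summit (4.55%, or 4.72% of the 106 that are not pseudogenes). These were 3 U6 genes, 7SKa and RNaseMRP:RNA, so none was a 5S rRNA entry. The 5S rRNA entries all lay on 2R and had the same nearest optimal summit, so they are not independent observations. The shares over all entries thus mostly describe that family.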

How the data were processed

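Per the labels, 2 biological replicates of Corto-GFP embryos gave chromatin sonicated to 200 to 800 bp. According to the notes deposited beside the lists, the authors called peaks and background on each replicate and on both pooled, against a control, and derived the optimal list from these. For the aligner, the caller, the threshold of the discovery rate and the read filters, nothing is given in the sources used here. The authors' signal is a score of unknown scale. The deposited −log10 q values were not used. Depth is unknown.

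The summit is the deposited offset added to the peak start, 1-based on dm6. Genes came from Ensembl release 115 (BDGP6.54), and bases were read from NCBI's RefSeq genome of that assembly. The 4 dm3 lists were not used. Isotypes come from gene names, and clusters from chaining starts up to 5000 bp apart. Named were all tRNA genes with an optimal summit, 2 just outside the limit, the 5 clusters with most genes and every cluster with an optimal summit, the other clusters of 5 or more genes in a figure, and companion genes with an optimal summit. Crcp and Mettl1 were not matched to a gene. Sequences of some members are not printed here. Shares have 95% Wilson intervals, which cover counting error only. Members, lists and motifs were chosen with earlier results of these data known. Calculations used Python 3.11.15, pandas 2.3.3, numpy 2.4.6 and scipy 1.17.1 and were tested on simulated data. Alternatives were other distances, each replicate alone, stronger entries, and loci or sequences counted once.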

Additional observations from a re-analysis of the deposited data

How the results depend on the processing

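The share of tRNA genes with an optimal summit was 5.52% as reported. It was 9.31% within 1000 bp, 3.1% in the stronger part of the list and 3.1% without summits near a protein-coding TSS. With each distinct sequence counted once, as occupied if any copy had a summit, it was 14.7% (14 of 95). Sequences with more copies had more chances to be counted, and no protein-coding share was computed for this setting. The share of tRNA genes was 4.48% to 5.17% with either replicate left out and the other's strongest 2644 entries used. In the optimal list the protein-coding share was higher wherever both were computed, for example 10.4% within 1000 bp and 6.85% without replicate 1. Of the 16 genes, 13 kept a summit without replicate 1 and 10 without replicate 2. The pooled share of tRNA genes, 41.7%, stood above the 36.2% of protein-coding gene starts. Within 250 bp it was 28.3% against 26.3%, and within 1000 bp 60% against 45.1%. Without replicate 1 it was 42.1% against 34.6%, and without replicate 2 it was 46.2% against 45.1%. For the strongest 10000 entries it was 18.6%, below the protein-coding share of 21.4%. With distances to the gene body it was 42.8%, against 52.6% for protein-coding genes. That setting counts summits over the whole gene and 500 bp on either side, so longer genes have longer windows and these 2 shares are not alike. Clusters with an optimal summit numbered 7, and 11 within 1000 bp, or 6 to 7 with a replicate left out. Optimal summits with a protein-coding TSS numbered 5, but 2 with the TSS within 250 bp, and 4 to 6 with a replicate left out. The other alternatives, including pooled entries down to rank 5000 (7.93%), chosen after seeing the data, moved values by less than the counting interval, or counts by less than 1.5 times; 23 of 32 alternatives were of this kind. No paired analysis was possible because the samples form 1 group and no test was made. Unknown depth limits what a missing summit shows: it was not detected, not absent.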
